A study of Mus musculus with 13 samples.

Results

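The 32 genes described here are expressed by macrophages and other antigen-presenting cells. They were listed by function, and each was read from its brightest probe set among those with a single gene symbol. All 32 had such a probe set, out of 17097 genes named on the array. Of these, 23 reached the level required for testing, a mean log2 signal of 4.90 over all arrays, and the other 9 (Adgre1, Aif1, Cd14, Cd53, Cx3cr1, Fcgr1, Itgam, Ms4a7 and Ptprc) lay below it. RNA came from the quadriceps of 13 male C57Bl/6 mice aged 4 months and kept on standard chow, with 1 array per animal. The labels name the groups C (n = 3), SKM-KO (n = 3), Wt (n = 3) and SKM-Tg (n = 4). The design names ablation and gain of function of DOR, an earlier name of Trp53inp2, in skeletal muscle, and SKM-KO and SKM-Tg were read as these. Pairing SKM-KO with C, and SKM-Tg with Wt, rests on the group names and the design. The labels give neither the promoter of the transgene nor the means of ablation, and they name no further allele or agent.

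Skeletal muscle holds resident macrophages in the connective tissue between its fibres, where they clear debris, present antigen and support repair. They are the main source of complement C1q, the recognition part of the classical complement pathway, and they carry Fc receptors, which bind the antibodies that coat a target. MHC class II molecules on macrophages, dendritic cells and B cells show peptides from engulfed material to helper T cells. In whole muscle, fewer cells of a type and less RNA per cell cannot be told apart.

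Trp53inp2, an autophagy factor, had log2 signals of 11.06, 11.19 and 11.15 in C and of 8.58, 8.79 and 8.99 in SKM-KO. It differed by -2.35 in SKM-KO minus C, and it was the 1 gene of 10411 that passed in that comparison (limma, Benjamini-Hochberg adjusted p = 9.03e-04). In SKM-Tg its level differed from Wt by -0.06 (limma, adjusted p = 0.954), so the probe set did not show a higher level in the arrays labelled SKM-Tg. Where a transgene lacks the part a probe set reads, the probe set would not measure it, and the labels do not settle this. Arrays varied more in Wt and SKM-Tg than in C and SKM-KO. The median within-group SD over all genes was 0.222 against 0.108, and each pair of groups was therefore fitted on its own arrays. Wt 2 stood apart, with the highest signal of all 13 arrays for 39.3% of genes and the lowest for 23.8%. The 10 muscle fibre markers used as a check had mean levels between 12.29 and 12.50 on every array.

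No member passed the test in SKM-KO against C or in SKM-Tg against Wt. In SKM-KO minus C, 0 of 23 members passed at an adjusted p of 0.05, against 0.00961% of all genes, and 1 had an unadjusted p under 0.05, against 2.74% of all genes (limma). Of the members, 14 had differences above 0 and 9 below, with a median of 0.13 beside 0.0077 over all genes tested, of which 54% lay above 0 and 46% below. Of the 9 listed members with several probe sets, 1 had the same sign on all of them in SKM-KO minus C, and 7 in SKM-Tg minus Wt. Counting only probe sets above the level for testing, 2 members had several, and both kept their sign in each comparison. In SKM-Tg minus Wt, 0 of 23 passed, against 0% of all genes, and 0 had an unadjusted p under 0.05, against 2.85% (limma). There 22 differences lay below 0 and 1, that of Cd163, above, with a median of -0.25 beside -0.05 over all genes, of which 62.2% lay below 0 and 37.8% above. With array weights, whose estimation stopped short of convergence in some fits, 10 of 23 members passed, beside 2344 of all 10411 genes. The member median moved to -0.06 without Wt 2, with 15 differences below 0 and 8 above. In SKM-KO minus C it moved to 0.0035 without C 3, with 12 above 0 and 11 below.

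Few members separated the groups. Among the members tested, the C and SKM-KO arrays did not overlap for Cd68, higher in SKM-KO, or for Mpeg1, lower in SKM-KO. Over all genes, 4.66% were higher without overlap and 2.83% lower. The Wt and SKM-Tg arrays overlapped for all 23 members, beside 1.18% of all genes higher and 2.79% lower without overlap. The 2 effects, SKM-Tg minus Wt and SKM-KO minus C, were compared in 1 fit of all arrays. Here 0 of 23 members passed, against 0.0192% of all genes, and 1, Cd68, had an unadjusted p under 0.05, against 3.1% (limma). The members' differences between the effects lay below 0 for 19 and above 0 for 4, with a median of -0.31 beside -0.06 over all genes, of which 61.7% lay below 0 and 38.3% above. That fit uses 1 estimate of the spread for all 4 groups.

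**Figure D1:**
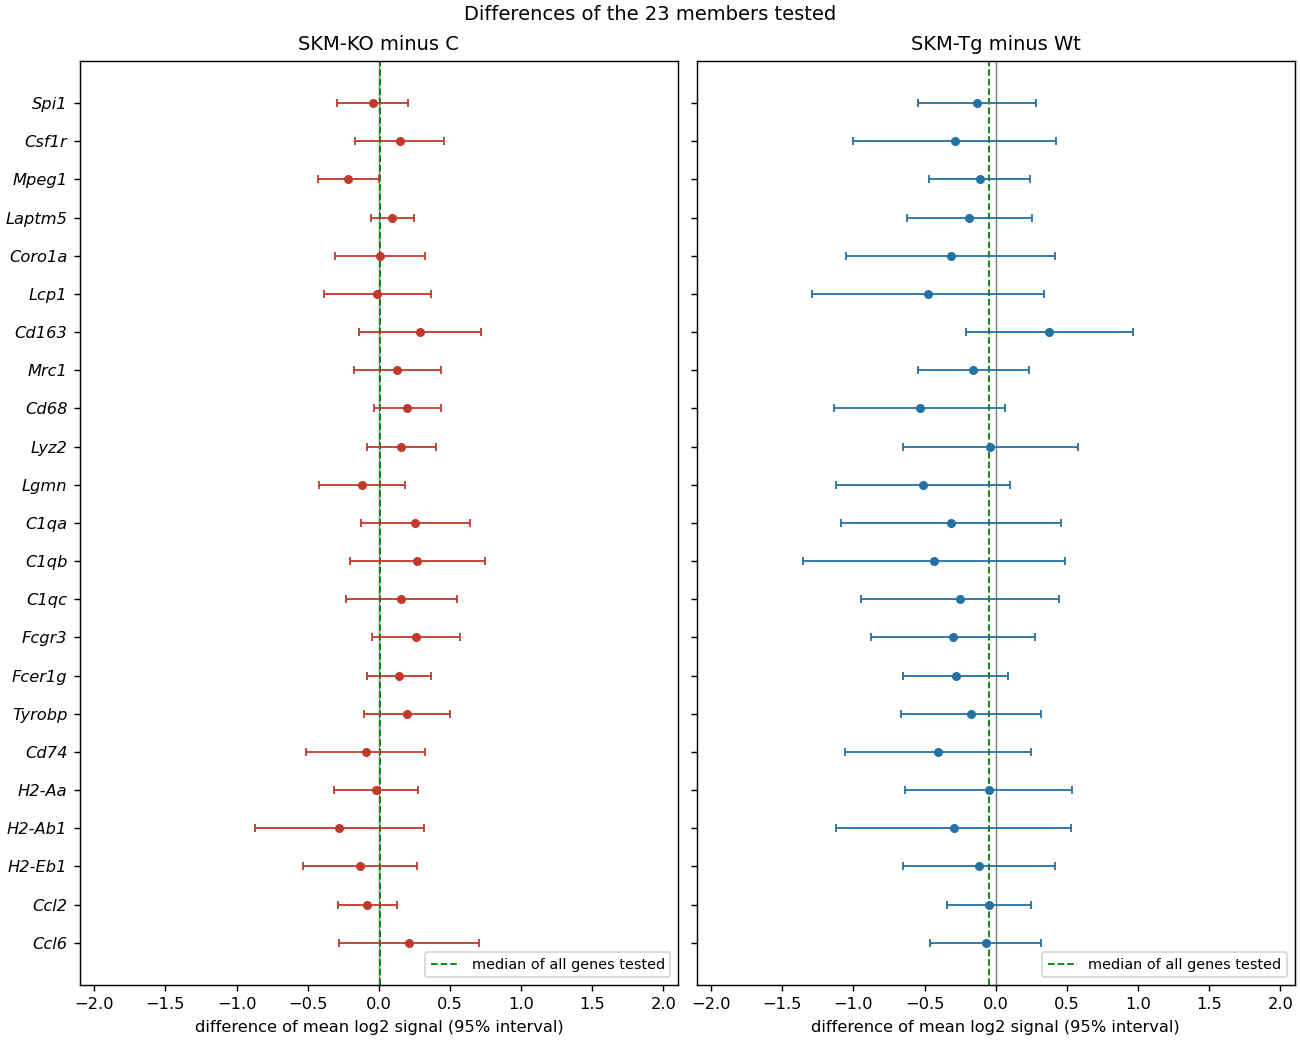
Differences in log2 signal of the 23 members tested, SKM-KO minus C and SKM-Tg minus Wt, with the 95% interval of each limma fit. The green dashed line is the median of all genes tested (0.0077 and -0.05). All but 1 of the SKM-Tg minus Wt differences lie below 0, and the intervals in both panels are wide beside the differences, with the interval of Mpeg1 in SKM-KO minus C the only one that leaves out 0.

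C1qa, C1qb and C1qc encode the 3 chains of C1q, and the genes lie side by side in the genome. Their levels varied together from animal to animal. Promoters of C1qb and C1qc, on the minus strand of chromosome 4, are shown because the chains moved together. RefSeq windows (GRCm38.p6) from 250 bases before to 50 after a gene's start were at hand for 23 of the 32 members, and the 250 bases before the start are printed. They are chr4:136886201-136886450 for C1qb and chr4:136892915-136893164 for C1qc. Capitals mark the core AGGAAGT of sites for PU.1, a transcription factor of myeloid cells, here read on the opposite strand as ACTTCCT.
C1qb: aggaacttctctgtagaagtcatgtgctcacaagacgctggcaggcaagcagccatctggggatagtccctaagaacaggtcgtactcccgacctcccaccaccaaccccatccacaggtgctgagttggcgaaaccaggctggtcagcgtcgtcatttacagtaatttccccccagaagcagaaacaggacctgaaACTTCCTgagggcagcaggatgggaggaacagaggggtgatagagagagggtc
C1qc: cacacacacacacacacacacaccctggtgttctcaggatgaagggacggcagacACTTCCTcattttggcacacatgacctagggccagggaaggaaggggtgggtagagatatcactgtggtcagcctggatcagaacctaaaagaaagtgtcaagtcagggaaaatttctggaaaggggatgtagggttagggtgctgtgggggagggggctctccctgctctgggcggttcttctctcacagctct
This core, searched on both strands, was in 9.35% of 32851 windows of all genes and in windows of 8 members. The others were Ccl6, Cd53, Fcgr1, Lyz2, Mrc1 and Ptprc. A match describes the letters only and is no measured site.

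C1qb had log2 signals of 6.12, 6.29 and 5.50 in C and of 6.11, 6.19 and 6.42 in SKM-KO. In Wt they were 6.66, 7.21 and 5.72, and in SKM-Tg 5.43, 5.83, 6.79 and 6.34. C 3, Wt 3 and SKM-Tg 1 and 2 were the low arrays, and both pairs of groups overlapped. The difference was 0.27 (SE 0.20) in SKM-KO minus C and -0.43 (SE 0.40) in SKM-Tg minus Wt, with limma adjusted p-values of 0.9999 and 0.938. The 95% interval in SKM-Tg minus Wt ran from -1.35 to 0.49, wide beside the differences seen. C1qa and C1qc followed the same arrays. C1qa ranged from 5.26 to 5.85 in C, 5.73 to 6.01 in SKM-KO, 5.54 to 6.76 in Wt and 5.24 to 6.30 in SKM-Tg. C1qc ranged from 6.20 to 6.87, 6.60 to 6.86, 6.38 to 7.35 and 6.18 to 7.15 in the same order. The mean of the 3 chains was highest on Wt 2, at 7.11, and lowest on SKM-Tg 1, at 5.63, with C 3 at 5.65. Wt 3, at 5.88, lay below every SKM-KO array. The median difference of the 3 was 0.26 in SKM-KO minus C and -0.31 in SKM-Tg minus Wt, and single arrays set their size: without Wt 2, SKM-Tg minus Wt was 0.03 for C1qa, -0.09 for C1qb and -0.01 for C1qc. Without C 3, SKM-KO minus C was 0.07, 0.03 and -0.02 in the same order.

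**Figure D2:**
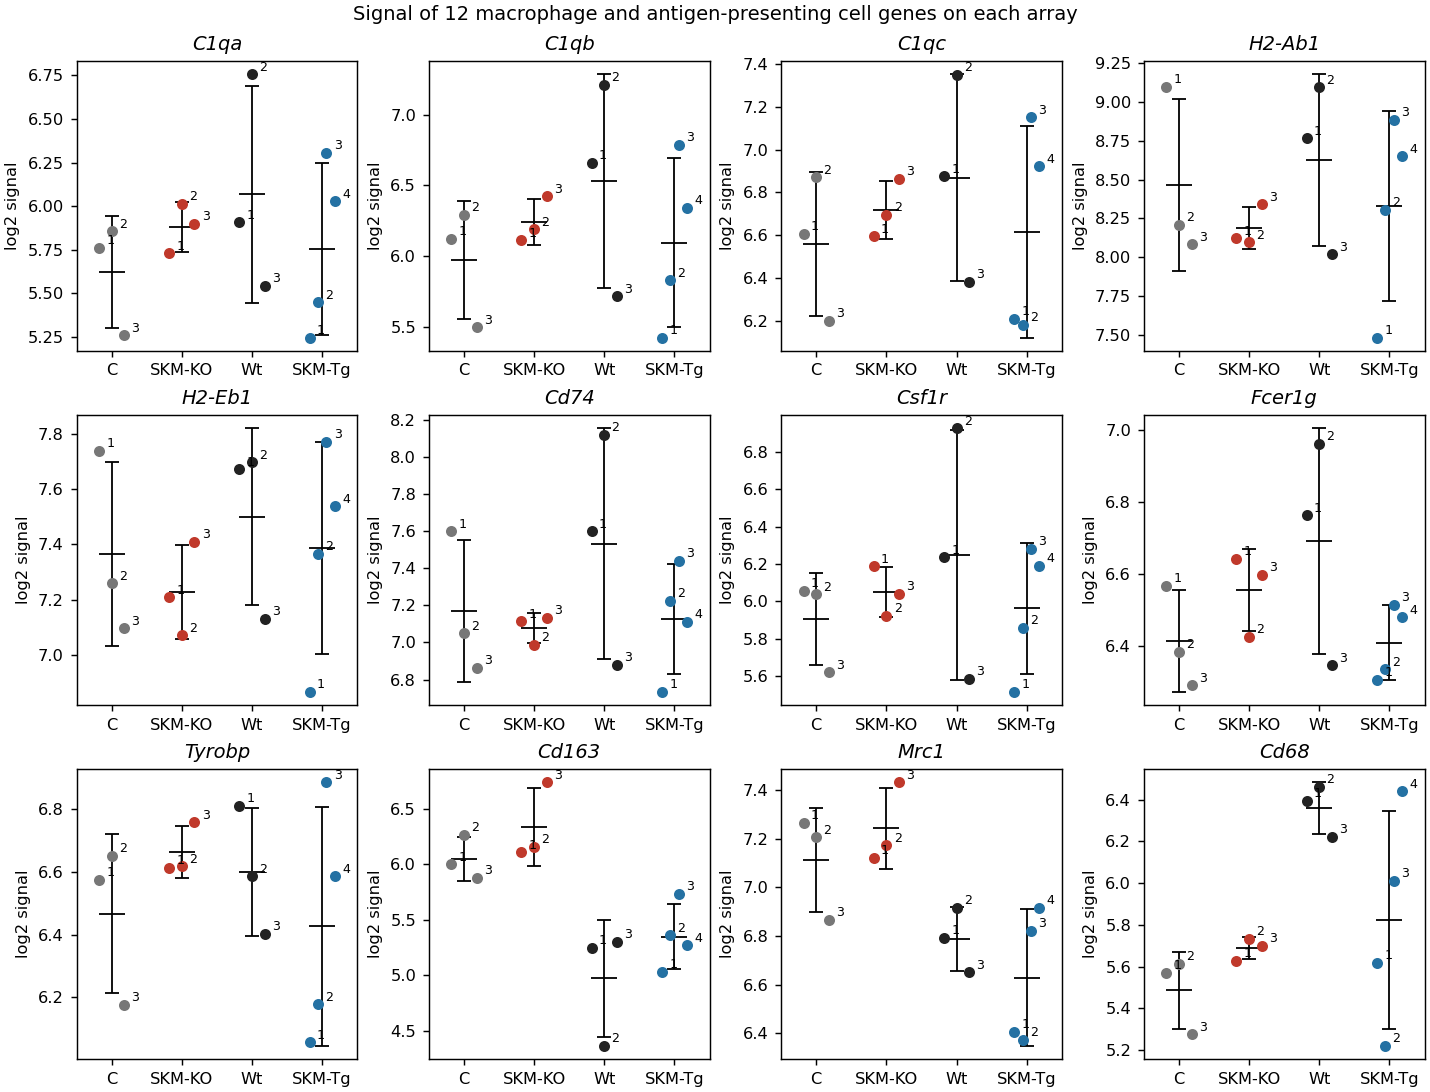
Log2 signal of 12 members on each array, by group (C, SKM-KO, Wt and SKM-Tg), with points numbered by replicate and bars for the mean ± SD. Wt 2 lies highest in its group for the C1q chains, and Cd163 lies lower and Cd68 higher in Wt than in C without overlap.

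The Fc receptors and their adaptors behaved in a like way. Fcer1g encodes the common gamma chain that carries the ITAM signal motif for several Fc receptors, and its log2 signals were 6.57, 6.39 and 6.29 in C, 6.64, 6.43 and 6.60 in SKM-KO, 6.76, 6.96 and 6.35 in Wt, and 6.31, 6.34, 6.52 and 6.48 in SKM-Tg. SKM-Tg arrays lay below Wt 1 and 2 and around Wt 3, a difference of -0.28 (SE 0.16). Tyrobp, the adaptor DAP12, had signals of 6.57, 6.65 and 6.18 in C, 6.61, 6.62 and 6.76 in SKM-KO, 6.81, 6.59 and 6.40 in Wt, and 6.06, 6.18, 6.89 and 6.59 in SKM-Tg. Fcgr3, a low-affinity IgG receptor, differed by 0.26 (SE 0.13) in SKM-KO minus C and by -0.30 (SE 0.25) in SKM-Tg minus Wt. Wt 2 was its highest array, at 6.05, and SKM-Tg 1 its lowest, at 4.77. Without Wt 2, SKM-Tg minus Wt was 0.0044 for Fcgr3 and -0.15 for Fcer1g, and without C 3, SKM-KO minus C was 0.14 for Fcgr3 and 0.08 for Fcer1g. The high-affinity receptor Fcgr1 lay below the level for testing, between 4.12 and 4.56 on all arrays. None of the 3 tested genes passed in either comparison. Their median difference was 0.20 in SKM-KO minus C and -0.28 in SKM-Tg minus Wt.

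The class II genes varied in part with C1q. Their mean was low on C 3, Wt 3 and SKM-Tg 1, at 7.58, 7.59 and 7.22, and highest on Wt 2, at 8.41. It departed from C1q on C 1, which was high at 8.29, and on SKM-Tg 2, where it was 7.86 and above every SKM-KO array. H2-Aa and H2-Ab1 encode the alpha and beta chains of the I-A molecule, H2-Eb1 the beta chain of I-E, and Cd74 the invariant chain that guides them to the lysosomal pathway. The promoters of H2-Aa (chr17:34287824-34288073, minus strand) and H2-Eb1 (chr17:34305617-34305866, plus strand) are shown for the shared elements through which class II genes are known to be switched on together. Capitals mark GCAACT, a part of the X box, and CTGATTGG, the Y box.
H2-Aa: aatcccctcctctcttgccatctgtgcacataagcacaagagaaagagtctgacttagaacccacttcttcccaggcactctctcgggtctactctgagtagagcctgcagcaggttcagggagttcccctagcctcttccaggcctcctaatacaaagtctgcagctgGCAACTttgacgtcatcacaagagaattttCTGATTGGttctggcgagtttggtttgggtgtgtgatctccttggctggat
H2-Eb1: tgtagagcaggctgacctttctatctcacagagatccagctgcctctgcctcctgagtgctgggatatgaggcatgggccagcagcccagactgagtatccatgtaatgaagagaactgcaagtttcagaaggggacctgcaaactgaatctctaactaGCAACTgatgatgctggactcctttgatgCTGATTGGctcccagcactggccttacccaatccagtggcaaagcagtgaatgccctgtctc
The X box part ended 24 bases before the Y box in H2-Aa and 23 in H2-Eb1. On both strands, the Y box letters were in 4.10% of all windows, the X box part in 10.9% and both in 0.466%. Among the 23 members with a window, the Y box letters were in H2-Aa and H2-Eb1 only. The X box part was also in windows of Cd53, Fcgr1 and Ms4a7, which are not class II genes.

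H2-Ab1 had log2 signals of 9.10, 8.21 and 8.08 in C, 8.12, 8.09 and 8.34 in SKM-KO, 8.77, 9.09 and 8.02 in Wt, and 7.48, 8.30, 8.88 and 8.65 in SKM-Tg. C 1 and Wt 2 were the highest arrays of all 13 and SKM-Tg 1 the lowest. The difference was -0.28 (SE 0.25) in SKM-KO minus C and -0.30 (SE 0.36) in SKM-Tg minus Wt, and neither passed. Its dimmer probe sets above the level for testing gave -0.09 and -0.03 in SKM-KO minus C. In SKM-Tg minus Wt they gave -0.29 and -0.13. On both, Wt 2 was again the highest array and C 1 the highest C array. C 1 lay below Wt 1 there, at 5.83 beside 5.97 and at 5.70 beside 5.71. H2-Eb1 followed with 7.74, 7.26 and 7.10 in C, 7.21, 7.07 and 7.41 in SKM-KO, 7.67, 7.70 and 7.13 in Wt, and 6.87, 7.37, 7.77 and 7.54 in SKM-Tg. Cd74 was high on C 1, between 6.86 and 7.13 on the other C and all SKM-KO arrays, and highest on Wt 2, at 8.12. Without C 1 the SKM-KO minus C difference was 0.04 for H2-Ab1, 0.05 for H2-Eb1 and 0.12 for Cd74. Without SKM-Tg 1, SKM-Tg minus Wt was -0.01 for H2-Ab1 and 0.06 for H2-Eb1, and without Wt 2 it was -0.11 for Cd74, against -0.40 with all arrays. H2-Aa, read from a probe set of a kind that can cross-hybridise, differed by -0.02 and -0.05 in the 2 comparisons, while its second probe set above the level for testing gave -0.04 and -0.34. All 4 genes had differences below 0 in both comparisons, as had 46% of all genes in SKM-KO minus C and 62.2% in SKM-Tg minus Wt. H2-Ea, the gene for the I-E alpha chain, lay below the level for testing, at a mean of 4.16.

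Among the genes of macrophage identity, Csf1r, the receptor for the growth factor CSF1, had signals of 6.06, 6.04 and 5.62 in C, 6.19, 5.92 and 6.04 in SKM-KO, 6.24, 6.93 and 5.59 in Wt, and 5.51, 5.86, 6.28 and 6.19 in SKM-Tg. It differed by 0.15 in SKM-KO minus C and by -0.29 (SE 0.31) in SKM-Tg minus Wt. Without C 3 the first was 0.0035, and without Wt 2 the second was 0.05. Spi1, which encodes PU.1, stayed between 4.68 and 5.38 on all arrays, with differences of -0.04 and -0.13, and the second was 0.0051 without Wt 2. Mpeg1, a pore-forming protein of phagocytes, was 5.55, 5.39 and 5.36 in C and 5.25, 5.07 and 5.34 in SKM-KO. Its difference of -0.22 (SE 0.09) had the smallest p of any member in that comparison, 0.0491 before adjustment, and did not pass (limma, adjusted p = 0.9999). Coro1a and Lcp1, actin-binding proteins of leukocytes, and Laptm5, a lysosomal membrane protein, differed in SKM-Tg minus Wt by -0.32, -0.48 and -0.19. Coro1a was 0.01 and Laptm5 -0.08 without Wt 2, and Lcp1 was -0.23 without SKM-Tg 1. Lcp1 was lowest on SKM-Tg 1 and 2, at 4.06 and 4.31, and at least 4.80 on every other array.

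Of the 9 members below the level for testing, most are general markers of the lineage. Adgre1, an adhesion receptor that marks macrophages, lay between 3.51 and 4.21. Itgam encodes CD11b and lay at 3.32 or lower, and Ptprc, which encodes CD45, lay between 2.69 and 3.62. Aif1, a calcium-binding protein of macrophages, lay at 4.72 or higher on all arrays, Cd14, a receptor for bacterial lipopolysaccharide, between 4.15 and 4.67, and Ms4a7, a membrane protein of macrophages, between 3.46 and 4.13. Cx3cr1, the receptor for the chemokine Cx3cl1, lay between 4.08 and 4.50, and Cd53, a tetraspanin of leukocytes, between 3.67 and 4.81. The differences of these genes were not tested. Without a test, Cd53 was higher and Cx3cr1 lower in SKM-KO than in C with no overlap, and their differences were 0.35 and -0.12. Their dimmer probe sets gave differences of opposite sign, -0.03 and 0.05, with overlap. Over all genes tested, 4.66% were higher and 2.83% lower without overlap.

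Of the 5 scavenging and lysosomal genes tested, 2 had a higher mean in Wt and SKM-Tg than in C and SKM-KO, and 3 a lower one. Cd163, a scavenger receptor for haemoglobin and haptoglobin on resident macrophages, had log2 signals of 6.00, 6.26 and 5.88 in C and of 6.11, 6.16 and 6.74 in SKM-KO. In Wt they were 5.25, 4.36 and 5.30, and in SKM-Tg 5.03, 5.36, 5.73 and 5.27. Every Wt and SKM-Tg array lay below every C and SKM-KO array, and within each pair the groups overlapped. Mrc1, the mannose receptor CD206, was 7.26, 7.21 and 6.87 in C, 7.12, 7.17 and 7.43 in SKM-KO, 6.79, 6.92 and 6.65 in Wt, and 6.41, 6.37, 6.82 and 6.92 in SKM-Tg. It was lower in Wt and SKM-Tg, with C 3 among their values. Cd68, a lysosomal glycoprotein, ran the other way, with 5.57, 5.61 and 5.28 in C, 5.63, 5.73 and 5.70 in SKM-KO, 6.40, 6.46 and 6.22 in Wt, and 5.62, 5.22, 6.01 and 6.44 in SKM-Tg. SKM-Tg 1 lay within the range of C and SKM-KO, SKM-Tg 2 below it, and SKM-Tg 3 and 4 and all Wt arrays above it.

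The 2 control groups did not overlap in Cd163 and Cd68, but neither gene passed when they were compared directly. In Wt minus C, Cd163 differed by -1.07 (SE 0.26, a 2.11-fold lower level) and Cd68 by 0.87 (SE 0.23), with limma adjusted p of 0.144 for each. Of 23 members, 0 passed, against 0.00961% of all genes, and 2 had an unadjusted p under 0.05, against 27.8% of all genes. Cd163 was lower and Cd68 higher without overlap, beside 8.51% and 15.4% of all genes. Of the members 18 lay above 0 and 5 below, with a median of 0.19 beside 0.06 over all genes, of which 58.8% lay above 0 and 41.2% below. Without Wt 3, 8 of 23 members passed, beside 4119 of all 10411 genes. The members were Cd163 and Cd68 (limma, adjusted p = 0.00689 and 0.0163), Csf1r, C1qb, Fcer1g, Laptm5, Cd74 and Spi1. Without any other single array of Wt or C, 0 of 23 members passed. Over these omissions the adjusted p reached 0.463 for each of Cd163 and Cd68 (limma). The difference of Cd163 was -0.77 without Wt 2. A comparison added after the values were seen set the mean of Wt and SKM-Tg against that of C and SKM-KO. In it 3 of 23 members passed, against 16.9% of all genes. Cd68 was higher, against 7.64% of all genes, and Cd163 and Mrc1 were lower, against 9.23%. Unadjusted p-values under 0.05 were found for 38.9% of all genes. The members' differences were above 0 for 16 and below for 7, with a median of 0.06 beside 0.04 over all genes, of which 57.2% and 42.8% lay above and below. Cd163 differed by -1.03 (SE 0.18, 95% interval -1.41 to -0.65, limma adjusted p = 0.0159), Mrc1 by -0.47 (SE 0.11, adjusted p = 0.0286), and Cd68 by 0.50 (SE 0.16, adjusted p = 0.0488). Cd163 missed the threshold without C 2, SKM-KO 2 or SKM-KO 3, at adjusted p of 0.0520, 0.0519 and 0.0543. Mrc1 reached an adjusted p of up to 0.0781 without 1 array (C 1, C 2, SKM-KO 2, SKM-KO 3, Wt 1 or SKM-Tg 2), and Cd68 missed the threshold without any 1 of the C or SKM-KO arrays, Wt 1, Wt 2, SKM-Tg 3 or SKM-Tg 4, at up to 0.109 without C 3. The count over all genes, 1756, ran from 15 without SKM-KO 2 to 4756 without Wt 3, and it stayed within 1.5 times only without SKM-Tg 1. Breeding, litter and array run of the 2 pairs of groups are not given, so these and the lines themselves cannot be told apart. Cd163 was the 1 tested member whose arrays did not overlap here, beside 2.66% of all genes that were lower without overlap. Ptprc, untested, was also lower on every Wt and SKM-Tg array, with a difference of -0.49.

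Lyz2, read like H2-Aa from a probe set of a kind that can cross-hybridise, encodes the lysozyme of myeloid cells. Its log2 signals were between 7.47 and 8.57. It was 8.20 to 8.56 in SKM-KO beside 8.15 to 8.32 in C, a difference of 0.16. Lgmn, a lysosomal protease, was 5.93, 6.66 and 5.70 in Wt and 5.22, 5.65, 6.05 and 5.42 in SKM-Tg. Its difference of -0.51 (SE 0.27) was near that of Cd68, -0.54 (SE 0.26), and the unadjusted p-values of these, 0.0906 and 0.0735 (limma), were small among members but missed the adjusted threshold. Without Wt 2 the difference of Lgmn was -0.23, and without SKM-Tg 2 that of Cd68 was -0.34. The 2 chemokines, Ccl2, which draws monocytes, and Ccl6, had differences of -0.08 and 0.21 in SKM-KO minus C and of -0.05 and -0.07 in SKM-Tg minus Wt. Ccl2 stayed between 4.72 and 5.17 on all arrays, close to the level for testing.

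Members varied together between animals of the same group. After subtracting each group's mean, the median Pearson correlation over the 253 pairs of members was 0.59 across the 13 arrays, beside 0.04 over pairs of all genes, and 211 pairs lay above 0. These values share arrays and normalization and are given as a description. The chains of C1q were closest, at a median of 0.96. H2-Ab1 and H2-Eb1 stood at 0.98, and the class II genes at a median of 0.86. C1q with class II gave 0.74, and C1q with the Fc receptor genes 0.83. Cd163 (median 0.02 with the other members), Mpeg1 (-0.05) and Ccl2 (-0.07) stood apart, and without Wt 2 the first 2 stood at 0.51 and 0.28. SKM-Tg 3 was above its group's mean for 22 of 23 members, Wt 2 for 19 and SKM-KO 3 for 18, while C 3 was above it for 1, Wt 3 for 2 and SKM-Tg 1 for 2. Wt 2 had the highest value of all arrays for 13 members and SKM-Tg 1 the lowest for 15, beside 39.3% and 10.7% of all genes.

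**Figure D3:**
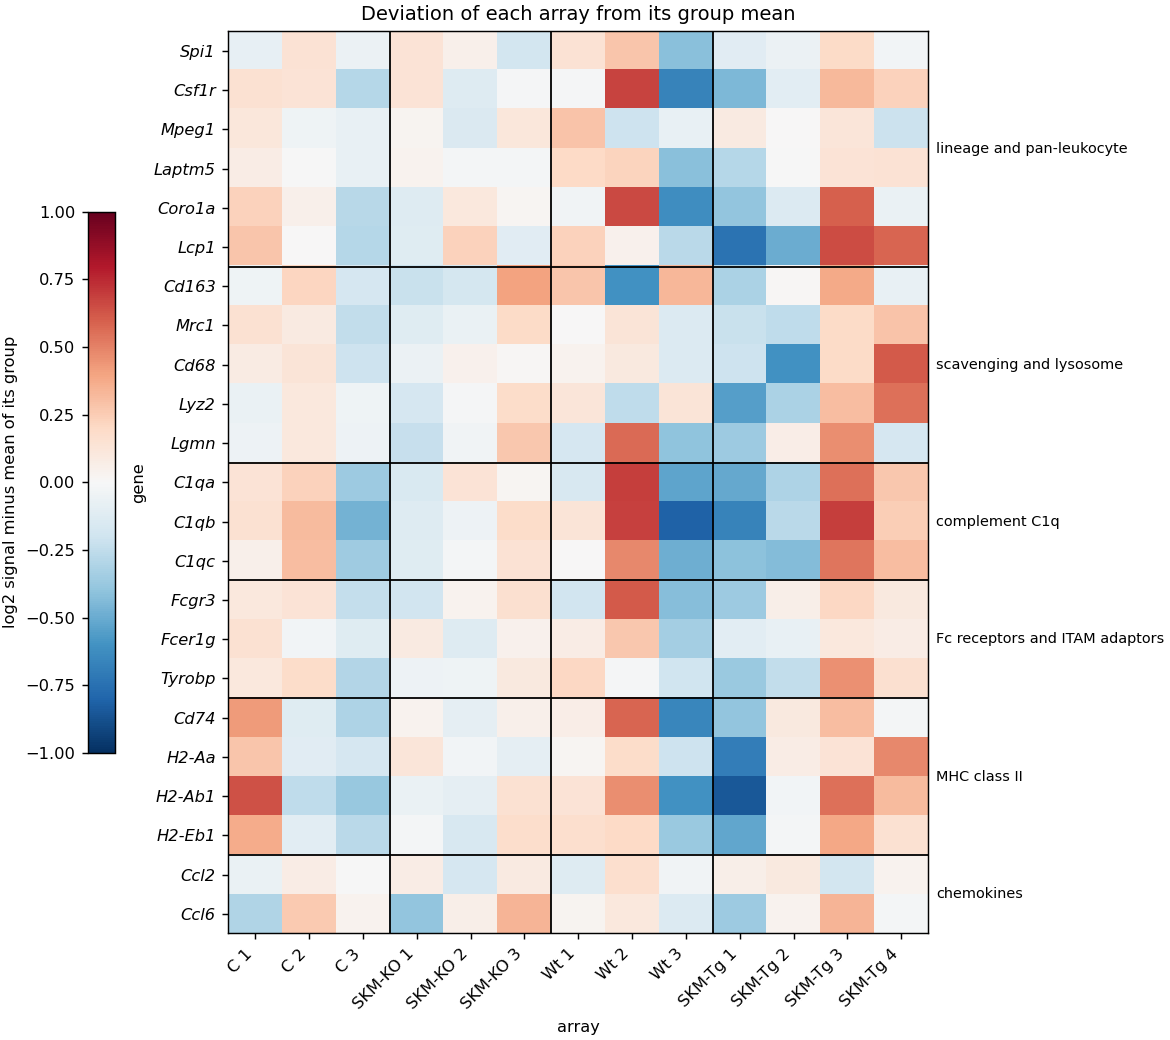
Deviation of each member's log2 signal from its group's mean on each of the 13 arrays, ordered by role. The colour runs from -1 to 1. Blocks of 1 colour down the columns of C 3, Wt 3, SKM-Tg 1 and SKM-Tg 3 show members that vary together. The exceptions are Ccl6 on C 3, Cd163 and Lyz2 on Wt 3, Mpeg1 and Ccl2 on SKM-Tg 1, and Ccl2 on SKM-Tg 3.

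The spread between animals was larger in Wt and SKM-Tg for 22 of 23 members, all but Ccl6, and for 84.5% of all genes. The median SD of members was 0.402 there and 0.193 in C and SKM-KO. Taken gene by gene, the median ratio of the SDs was 1.91 over members and 2.03 over all genes.

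Other genes of these pathways were taken from lists chosen with knowledge of these data. Of 16 regulators and partners of class II presentation, 8 were tested, with 5 differences above 0 and 3 below in SKM-KO minus C (median 0.06), and 2 and 6 in SKM-Tg minus Wt (median -0.09). Over all the lists here and in the next paragraph, 0 genes passed in either comparison (limma). The class II, resident macrophage, monocyte and chemokine lists each had 1 gene with an unadjusted p under 0.05 in SKM-KO minus C. In SKM-Tg minus Wt 1 resident macrophage gene had such a p, and no other gene of this paragraph's lists did (limma). Over all genes the shares were 2.74% in SKM-KO minus C and 2.85% in SKM-Tg minus Wt. Ctss, the protease that trims the invariant chain, was 7.01, 7.08 and 6.51 in C, 6.93, 6.98 and 7.32 in SKM-KO, 5.88, 5.59 and 6.62 in Wt, and 5.80, 5.67, 6.01 and 6.22 in SKM-Tg. In the added comparison it was lower in Wt and SKM-Tg (limma, adjusted p = 0.0156). Ciita, the master activator of class II genes, lay below the level for testing. Rfxap, of the same list, differed by -0.32 in SKM-KO minus C (limma, unadjusted p = 0.00366, adjusted p = 0.9999). In SKM-Tg minus Wt it differed by 0.26 (limma, adjusted p = 0.938). Neither passed, and the groups did not overlap in either comparison. Over all genes, 2.83% were lower without overlap in the first and 1.18% higher in the second. The complement list outside C1q had 11 tested genes of 20, with 8 above 0 and 3 below in SKM-KO minus C (median 0.12) and 3 and 8 in SKM-Tg minus Wt (median -0.11). The 8 Fc and ITAM signalling genes tested of 17 had medians of 0.05 and -0.02. The 13 of 17 resident macrophage markers tested had medians of 0.05 and -0.25, with 11 below 0 in SKM-Tg minus Wt. Among these, Cbr2, a carbonyl reductase, was 9.04, 9.60 and 8.05 in Wt and 7.45, 7.56, 7.97 and 7.67 in SKM-Tg, with no overlap. Its difference of -1.23 did not pass (limma, adjusted p = 0.938). It was 7.61, 7.47 and 7.62 in C and 7.90, 8.11 and 7.67 in SKM-KO. SKM-KO minus C was 0.33 and Wt minus C 1.33, both without overlap, and neither passed (limma, adjusted p = 0.9999 and 0.144). Monocyte and inflammatory genes were mostly below the level for testing: 5 of 18 were tested, with medians of -0.09 and -0.07. Of 18 chemokines and receptors, 7 were tested, with medians of 0.07 and -0.20. Cx3cl1 differed by -0.33 in SKM-KO minus C without overlap, and did not pass (limma, adjusted p = 0.9999). The growth factors and transcription factors of macrophages (10 of 16 tested) had medians of -0.01 and -0.16. In the added comparison Irf8 was higher by 0.70 and Cebpb by 0.57 in Wt and SKM-Tg (limma, adjusted p = 0.0373 and 0.0216). Cx3cl1 was also higher, and Cd80, Mertk and Ccl11 were lower (limma, adjusted p = 0.0259, 0.0346, 0.0426 and 0.0255). In that comparison 16.9% of all genes passed, and only 15 genes without SKM-KO 2. The p-values of these named genes and Ctss without single arrays were not recorded.

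Markers of other cells varied with the members on some arrays, and their part in the results was not tested. Of 12 markers of T and NK cells 3 were tested, of 8 of B cells 1, of 8 of neutrophils 2, of 7 of mast cells 2 and of 9 of dendritic cells 2. Fibroblast and matrix markers, 9 of 12 tested, had a mean level of 7.99 and 8.13 on SKM-Tg 1 and 2 beside 8.51 and 8.47 on SKM-Tg 3 and 4, and of 8.43 on C 3 beside 8.79 and 8.72 on C 1 and 2. Their median difference was 0.05 in SKM-KO minus C and -0.20 in SKM-Tg minus Wt. Endothelial markers, 11 of 11 tested, gave -0.04 and -0.22, with SKM-Tg 1 and 2 again lowest of their group at 8.18 and 8.11. Erythroid markers, 3 of 6 tested, had medians of 0.06 and -0.28. Other lists differed in other ways. Liver transcripts, 6 of 7 tested, were all below 0 in SKM-KO minus C (median -0.78), where 0 passed (limma). An unadjusted p under 0.05 was found for 5 of them (limma), beside 2.74% of all genes. Of the 6, 5 were lower without overlap, beside 2.83% of all genes. The liver list had a median of 0.00014 in SKM-Tg minus Wt. Fat cell markers, 4 of 8 tested, had medians of 0.22 and 0.44, the second opposite in sign to the members. Schwann cell markers, 3 of 8 tested, had medians of 0.33 and 0.03, smooth muscle and pericyte markers, 6 of 8 tested, of -0.04 and -0.12, and satellite cell markers, 2 of 6 tested, of 0.0083 and -0.12. The 10 muscle fibre markers had medians of 0.00 and -0.06. In SKM-KO minus C, 2 Schwann cell genes and 1 erythroid gene also had an unadjusted p under 0.05 (limma). In each of these 2 lists 1 gene was higher without overlap, beside 4.66% of all genes. In SKM-Tg minus Wt, 1 smooth muscle and pericyte gene had an unadjusted p under 0.05 (limma), beside 2.85% of all genes.

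**Figure D4:**
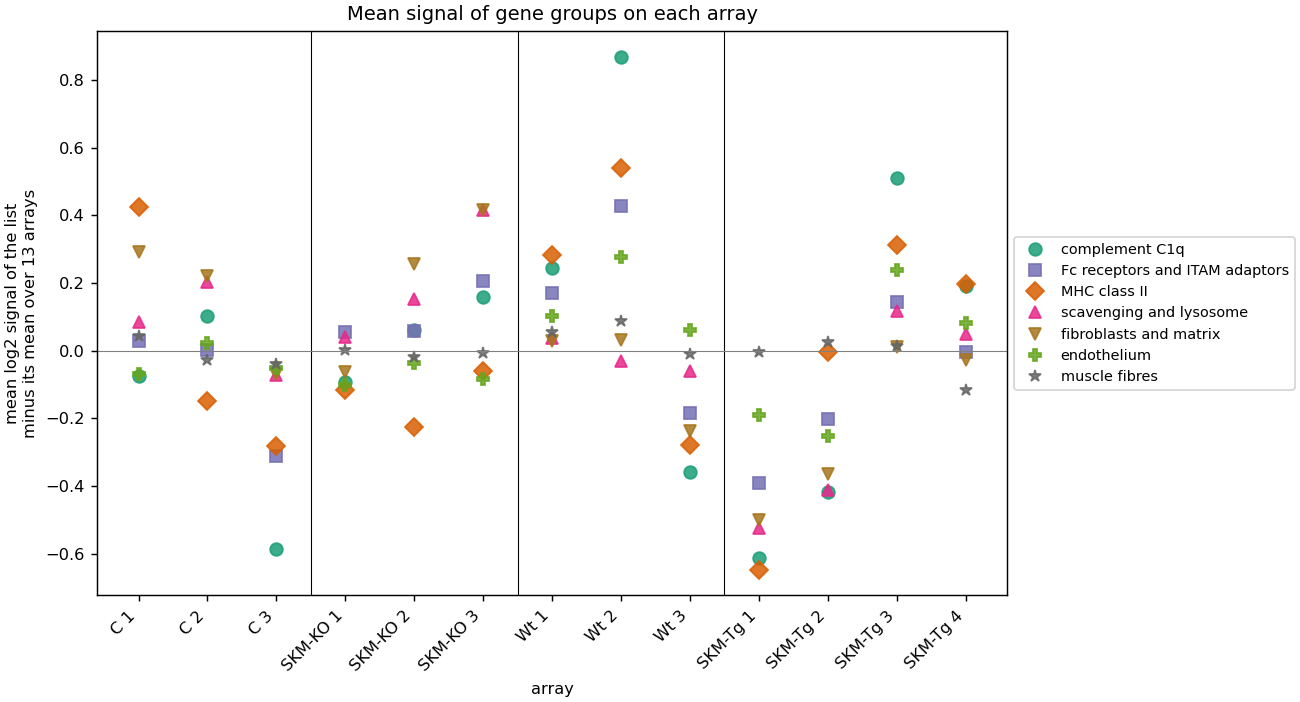
Mean log2 signal of 7 gene groups on each array, less that group's mean over the 13 arrays. Points stand for the C1q, Fc receptor, class II and scavenging members and for fibroblast, endothelial and muscle fibre markers. SKM-Tg 1 and 2 lie below SKM-Tg 3 and 4 for the members, fibroblast and endothelial markers, although class II on SKM-Tg 2, at 7.86, is near its mean over all arrays, and muscle fibre markers lie near 0 throughout.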

How the data were processed

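Quadriceps RNA of 13 animals was measured on Affymetrix mouse strip arrays, 1 array per animal. Per the labels, 25 ng of RNA went into isothermal amplification and biotin labelling. The authors deposited log2 signals of 45141 probe sets made with RMA, which corrects background, normalizes between arrays and summarises probes; RMA is named in the submitters' processing notes without a version. Values ran from 2.14 to 13.21 and array medians from 4.85 to 4.94. The number of arrays limits the precision, and no batch or scan date is given in the sources used here.

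Control probe sets (104) were left out, and genes were named from probe sets with 1 symbol (28898; 551 had several, 15588 none). Each gene took its brightest probe set, and 10411 of 17097 genes with a mean of at least 4.90, the median over probe sets, were tested. limma 3.58.1 (R 4.3.3) was fitted separately to C and SKM-KO and to Wt and SKM-Tg, and to all arrays for the difference of the effects, Wt minus C and the added comparison. Tests were two-sided with Benjamini-Hochberg adjustment over all genes tested and a threshold of 0.05. The fits were tested on simulated data. Alternatives were other normalizations, filters, probe set summaries, moderation and weights, and leaving out each array. The members and lists were chosen with earlier results of these data known. All members were named. Other lists gave up to 4 tested genes by p in the comparison discussed, and Ciita and H2-Ea were named without a test.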

Additional observations from a re-analysis of the deposited data

How the results depend on the processing

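Counts of genes passing moved most with array weights, whose estimation stopped short of its convergence tolerance in some fits, and with single arrays. In SKM-Tg minus Wt, 2344 of 10411 genes passed with array weights, against 0, and 0 without any 1 array but Wt 3, where 2 passed. With array weights, 10 of 23 members were among them (Tyrobp, Cd68, C1qb, Fcer1g, Laptm5, Cd74, Lcp1, Mpeg1, Spi1 and Lgmn). In SKM-KO minus C, 2 passed with probe sets of a gene averaged, against 1, and 1 without any 1 array. In the difference of effects, 1 passed under median centring, the 75th percentile filter, 1 weight per line and array weights, against 2, and 1 without any 1 array but Wt 3, where 2 passed. In Wt minus C, 0 passed under quantile and cyclic loess normalization, no filter, 1 weight per line and array weights, and 2 with the mean of probe sets, against 1, and 0 without any 1 C array, Wt 1 or Wt 2, and 4119 without Wt 3. In the comparison of Wt and SKM-Tg with C and SKM-KO, added after the data were seen, 2729 passed with 1 weight per line and 132 with array weights, against 1756, and 15 without SKM-KO 2 to 4756 without Wt 3. There Mrc1 had an adjusted p of 0.118 with array weights, and Cd68 of 0.0561 under median centring, 0.0552 under cyclic loess, 0.0672 with no filter and 0.310 with array weights. Without 1 array, the member median lay between 0.0035 and 0.16 in SKM-KO minus C, between -0.45 and -0.06 in SKM-Tg minus Wt, between -0.49 and -0.17 in the difference, between 0.04 and 0.42 in Wt minus C and between -0.01 and 0.15 in the added comparison. Under the other settings each member median moved by less than the SD between animals, 0.249. In SKM-KO minus C the member median still changed sign under the 75th percentile filter, to -0.02. There 7 members were tested, 3 above 0 and 4 below. The cause of these changes was not tested. Of the 23 members, 13 kept their sign in SKM-KO minus C and 12 in SKM-Tg minus Wt under every setting run. No paired analysis was possible because the labels carry no shared replicate numbers.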

Other observations

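The genes whose levels followed the members most closely were named by the correlation of their group-centred log2 signals with the mean of the 23 members over the 13 arrays. They were Grn, Sirpa, Bicc1, Tex38, Serping1, Traf2, Col6a1, Grb2, Crispld2 and Tgfbi, with Pearson correlations between 0.96 and 0.98, beside a median of 0.25 and a 95th percentile of 0.83 over the 10388 other genes tested. Without SKM-Tg 1 and Wt 3 these correlations were 0.92 to 0.96. Grn had log2 signals of 9.47, 9.49 and 9.34 in C, 9.47, 9.49 and 9.62 in SKM-KO, 9.90, 10.13 and 9.53 in Wt, and 9.10, 9.41, 9.85 and 9.72 in SKM-Tg. Wt 2 was its highest array and SKM-Tg 1 its lowest, as for most members.

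Arg1, an arginine-degrading enzyme of the monocyte and inflammatory list, was 5.31, 5.42 and 5.13 in C and 5.05, 4.80 and 4.73 in SKM-KO, with no overlap. Its difference of -0.43 had an unadjusted p of 0.006 and did not pass (limma, adjusted p = 0.9999).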
